A study of Homo sapiens with 24 samples.

Results

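Transcripts of 10 human genes that set how far RNA polymerase II travels and where it stops were followed across all libraries. The genes were ZC3H4 and WDR82, which act in the restrictor complex, PCF11, SCAF4, SCAF8 and XRN2, which act at termination, and SUPT5H, SUPT6H, PAF1 and CDC73, which act in elongation. They were taken from a list of names, by no threshold on a measured value, though with earlier results of these data known. All 10 were found among 35579 genes, with 83 of 169797 transcripts, and all 10 passed the minimum mean level of 1 TPM in both experiments.

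The study used A549, a human lung adenocarcinoma cell line labelled as wild type throughout, and measured polyadenylated RNA in 24 libraries of 2 experiments. For whole-cell RNA, cells received a pool of control siRNAs or of siRNAs against the kinase gene TAOK2, both at 30 nM with a lipid reagent, or DMSO or compound 2, with 3 libraries per group in batches A, B and C. The titles of all 12 of these libraries also carry the word mock, and the labels do not say what the mock treatment was. Compound 2 is given by the labels as an inhibitor of the TAOK2 kinase, and the sources used here do not give its dose or time. In the fractionation experiment, total RNA and its nuclear and cytoplasmic parts came from cells with control or TAOK2 siRNA, with 2 libraries per group in batches 1 and 2. An siRNA pool lowers RNA and leaves the gene in place. Values are TPM, the usual transcript abundance, a level per transcript length scaled to a fixed total per library. Read totals are not kept in TPM, so the depth behind a value is unknown beyond the minimum that the labels state. Nothing in the labels says that the libraries of a group came from separate cultures, so p-values measure the spread between these libraries, which may be technical.

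RNA polymerase II pauses soon after it starts, and elongation factors such as DSIF (which contains the SUPT5H protein), SPT6 (the SUPT6H protein) and the PAF complex carry it through the gene. Transcription ends when the RNA is cut and polyadenylated and an exonuclease degrades the RNA still attached to the polymerase. The restrictor complex of ZC3H4 and WDR82 ends short, mostly noncoding transcription early, while SCAF4 and SCAF8 are known to hold back the use of early polyadenylation sites. PCF11 is a subunit of the cleavage machinery and is known to carry a polyadenylation site of its own in the first intron.

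The checks on the libraries were as follows. TAOK2 RNA ran from 34.3 to 40.3 TPM with control siRNA and from 8.56 to 12.5 TPM with its siRNA in whole cells (log2 change -1.75, limma adjusted p = 2.32e-05). It ran from 20.5 to 30.7 TPM under compound 2 and from 37.5 to 40.6 in DMSO. In the fractionation experiment the knockdown of TAOK2 did not pass in total, nuclear or cytoplasmic RNA (log2 changes -0.89, -0.57 and -1.34, limma adjusted p = 0.88, 0.834 and 0.565). That fit took no account of batch. In batches 1 and 2, total RNA held 9.7 and 5.01 TPM of TAOK2 with control siRNA and 3.67 and 2.99 with its siRNA. Nuclear RNA held 15.6 and 9.31 against 9.68 and 6.24 TPM. Cytoplasmic RNA held 7.63 and 3.37 against 2.41 and 0.728 TPM. Each knockdown library was below the control library of its batch. Across genes, libraries of the same group gave r = 0.984 to 0.997 in whole cells and 0.928 to 0.970 in the fractionation experiment. Of 8 epithelial markers, 7 had a mean of at least 1 TPM in whole cells and 6 in the fractionation experiment, and of 5 alveolar and lung markers 1 did in each, so the line expressed general epithelial markers and little of the alveolar programme. Single markers differed between the experiments. KRT19 ran from 90.8 to 287 TPM in whole cells and from 0.0707 to 1.22 in the fractionation experiment. For EPCAM these ranges were 3.72 to 12.2 and 25.7 to 113 TPM. Endothelial, fibroblast and leukocyte markers had summed levels of at most 1.24, 31.4 and 8.45 TPM in whole cells and of at most 6.13, 10.7 and 65.5 TPM in the fractionation experiment, where LYZ made up most of the last, and the T cell marker CD3E was listed at 0 throughout. Their part in the results was not tested.

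Levels of the 10 genes in DMSO spanned less than a factor of 10 in TPM. SUPT5H (138 ± 5.06 TPM, SD, n = 3) and XRN2 (135 ± 7.49) stood highest, and their libraries overlapped. PAF1 (111 ± 3.93) and SUPT6H (105 ± 4.29) came next and also overlapped. CDC73 (55.2 ± 1.93) was above WDR82 (50.2 ± 2.01) in every library. The lowest set, in falling order, was the termination factor PCF11 (23.5 ± 1.76), the restrictor subunit ZC3H4 (21.0 ± 1.96) and the termination factors SCAF8 (18.3 ± 2.05) and SCAF4 (17.8 ± 1.21), and neighbours in that order overlapped. Between control siRNA and DMSO, 0 of 10 passed in limma and 0 had an unadjusted p under 0.05. Of all genes 6.43% passed, 4.32% up and 2.11% down, which is 566 and 277 genes, or 421 and 354 with each library centred on its median gene.

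**Figure D1:**
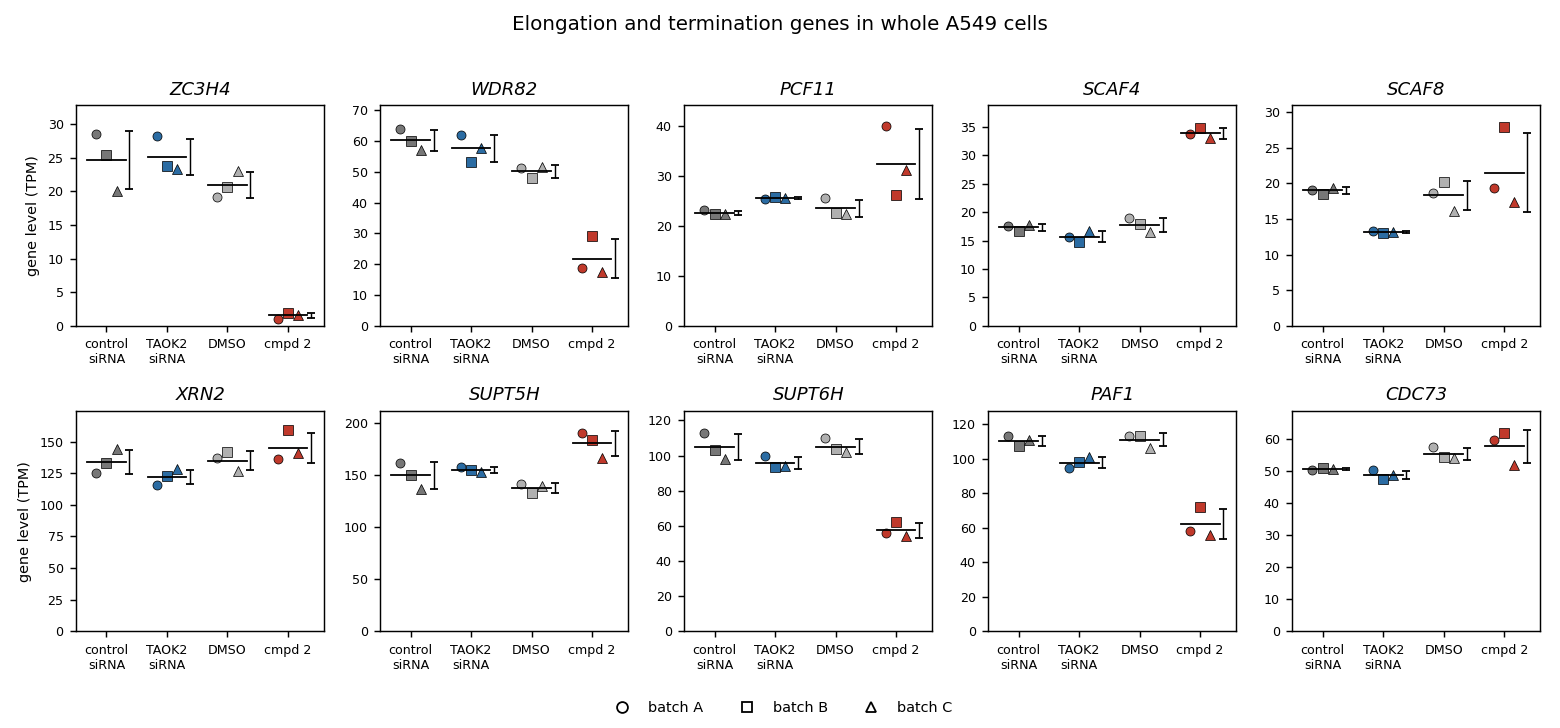
Gene level in TPM (y axis, linear from 0) of the 10 genes in the 4 whole-cell groups; symbols mark batches, horizontal lines the mean and vertical bars the SD of 3 libraries. ZC3H4, WDR82, SUPT6H and PAF1 lie lowest under compound 2, SCAF4 highest, and SCAF8 is lowest with TAOK2 siRNA.

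Compound 2 was compared with DMSO to see which of these RNAs change with the inhibitor. Both restrictor genes fell, ZC3H4 by far the most, and SUPT6H and PAF1 fell to a little over 0.5 of their DMSO level. SCAF4, PCF11 and SUPT5H rose. XRN2, CDC73 and SCAF8 did not pass the test. In all, 7 of 10 passed in limma, 3 up and 4 down, where 63.7% of the 13106 genes tested passed, 12% up and 51.8% down, so the share that passed was near the background. The direction depends on the scale. With each library centred on its median gene, all 10 values moved up by 0.51 (log2), and XRN2 (0.61), CDC73 (0.57) and SCAF8 (0.71) passed as higher as well. The 7 genes kept their direction under that scaling. Over all genes the calls were 1571 up and 6783 down as deposited and 5662 up and 3189 down when centred. In bulk RNA, fewer cells of a kind and less RNA per cell cannot be told apart.

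ZC3H4 (ENSG00000130749, GRCh38 chr19:47064187-47113752, reverse strand), the zinc finger subunit of the restrictor, held 19.2, 20.7 and 23.1 TPM in DMSO batches A, B and C and 1.05, 1.91 and 1.62 TPM under compound 2. The groups were far apart, and the ZC3H4 mean was 13.7-fold lower. The change was -3.13 ± 0.15 (log2 of TPM + 1, ± SE, limma adjusted p = 5.54e-09), a scale that understates changes of low genes, and it ranked 4 from the lowest of 13106 genes. Leaving out 1 library at a time gave -3.24 to -2.99. The genes whose whole-cell pattern was most like that of ZC3H4, by Pearson correlation over 12 libraries among 10388 genes, were TAB1 (r = 0.9968), HPS6 (0.9966) and PCNX3 (0.9964). With compound 2 that far from the other groups, such a correlation mostly describes that separation.

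WDR82 (ENSG00000164091, chr3:52254421-52288020, reverse strand), a repeat protein shared by the restrictor and the SETD1 histone methyltransferases, held 51.2, 47.9 and 51.6 TPM in DMSO and 18.7, 29.2 and 17.5 TPM under compound 2. Every compound 2 library was below every DMSO library, and that of batch B was nearest to them. WDR82 fell by 1.20 on the log2 scale (SE 0.15, limma adjusted p = 1.39e-05), and leaving out 1 library at a time gave -1.42 to -1.07. The batch B compound 2 library also had the highest TAOK2 level of its group (30.7 against 21.5 and 20.5 TPM), and its part in the spread was not tested.

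SUPT6H (ENSG00000109111, chr17:28662091-28702684, forward strand), the histone chaperone that travels with the polymerase, held 110, 104 and 102 TPM in DMSO and 55.7, 62.3 and 54.3 TPM under compound 2. The groups did not overlap, and the fall was -0.86 ± 0.07 (limma adjusted p = 3.91e-07). PAF1 (ENSG00000006712, chr19:39385852-39391195, reverse strand), the name-giving subunit of the PAF complex, held 113, 113 and 106 TPM in DMSO and 58.2, 71.9 and 55.8 under compound 2. PAF1 likewise showed no overlap and fell by 0.84 (SE 0.08, limma adjusted p = 1.98e-06). The partner subunit CDC73 (ENSG00000134371, chr1:193121800-193254815, forward strand), parafibromin, held 57.4, 54.2 and 53.9 TPM in DMSO and 59.4, 61.6 and 51.8 under compound 2. These CDC73 groups overlapped, and the change of 0.06 ± 0.07 did not pass (limma adjusted p = 0.484).

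SCAF4 (ENSG00000156304, chr21:31671033-31732075, reverse strand), an RNA-binding protein that reads the tail of the polymerase, held 18.9, 17.9 and 16.5 TPM in DMSO and 33.8, 34.9 and 33.0 under compound 2. All compound 2 libraries were above all others, and SCAF4 rose by 0.90 ± 0.08 (limma adjusted p = 4.96e-07). Its paralog SCAF8 (ENSG00000213079, chr6:154733325-154834244, forward strand) held 18.6, 20.2 and 16.1 TPM in DMSO and 19.4, 27.9 and 17.4 under compound 2. The SCAF8 groups overlapped, batch B stood high under compound 2, and the change was 0.20 ± 0.14 (limma adjusted p = 0.219). Among the fits with 1 library left out, SCAF8 passed only without the compound 2 library of batch C (0.34, limma adjusted p = 0.0482). It also passed as higher with libraries centred on their median gene, as given above.

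PCF11 (ENSG00000165494, chr11:83156988-83187451, forward strand) held 25.5, 22.5 and 22.4 TPM in DMSO and 39.9, 26.2 and 31.1 under compound 2. The lowest compound 2 library, of batch B, was just above the highest DMSO library, and the rise was 0.43 ± 0.12 (limma adjusted p = 0.00662). SUPT5H (ENSG00000196235, chr19:39436156-39476670, forward strand) held 142, 133 and 140 TPM in DMSO and 191, 184 and 167 under compound 2. SUPT5H groups did not overlap, and the rise was 0.38 ± 0.07 (limma adjusted p = 0.00039). XRN2 (ENSG00000088930, chr20:21303304-21389827, forward strand), the exonuclease that follows the polymerase after cleavage, held 137, 142 and 127 TPM in DMSO and 136, 159 and 141 under compound 2. The XRN2 groups overlapped (0.10 ± 0.08, limma adjusted p = 0.269).

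**Figure D2:**
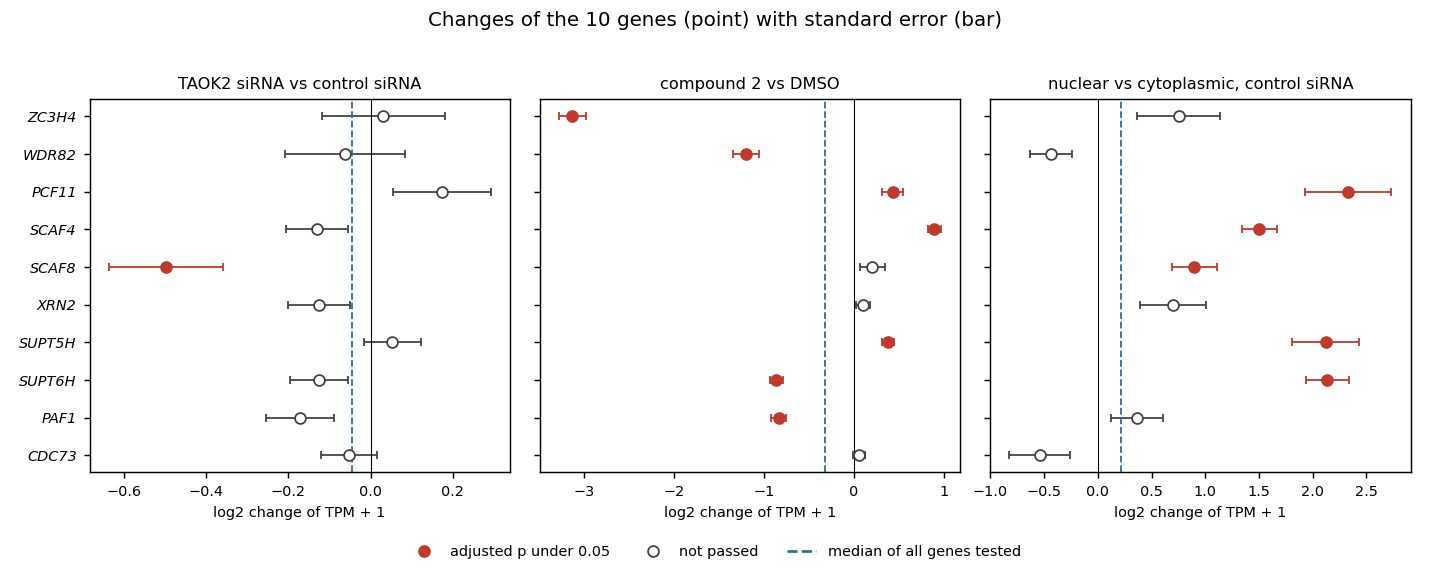
Change of each gene on the log2(TPM + 1) scale (x axis, differing between panels) with its standard error, for TAOK2 siRNA against control siRNA, compound 2 against DMSO, and nuclear against cytoplasmic RNA of control cells. Filled red points passed at an adjusted p of 0.05, and the dashed line is the median of all genes tested; 1, 7 and 5 of the 10 points are filled.

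The sum over a gene hides which transcripts it is made of. A transcript was called early-ended when its annotated end lies upstream of the last exon of the gene's coding transcript with the longest coding sequence, and the odds of early-ended against other transcripts were tested with 0.5 TPM added to each sum. The class includes partial models that also start inside the gene, such as SCAF4-205 and SUPT6H-203 with 3 exons each, so its name describes the annotation. SCAF4-204 is such a partial model too, with 14 exons and a start 30.3 kb into the gene. XRN2 has 1 transcript in the data and could not be tested. Of the 9 other genes, 6 shifted towards early ends under compound 2 (PCF11, SCAF4, CDC73, SCAF8, ZC3H4 and SUPT5H) and 0 the other way, while WDR82, SUPT6H and PAF1 did not pass. Over all 8127 genes tested, 47.6% passed, 39.4% towards early ends and 8.15% away. With batch as a block PAF1 also passed, away from early ends (-0.81, limma adjusted p = 0.0398), as it did without the DMSO library of batch B (-1.21, 0.0086). WDR82 passed towards early ends without the compound 2 library of batch B (1.12, limma adjusted p = 0.00148). The share of all TPM in transcripts annotated as retained introns was 4.25% to 4.89% under compound 2 and 4.69% to 4.91% in DMSO.

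The 3′ ends of forms of PCF11 and SCAF4, the genes with the largest shifts towards early ends, are shown because they are where the annotation ends these transcripts. All are from GENCODE 29 on GRCh38, written along the transcript, with capitals for the polyadenylation hexamer found, of the 2 that were searched, AATAAA and ATTAAA.
PCF11-207, chr11:83158850-83158879, forward strand: aaaatttgtgAATAAAacatataaaatatg
SCAF4-204, chr21:31683995-31684024, reverse strand: tttatAATAAAaaaacaatttgtttttaaa
SCAF4-206, chr21:31700759-31700788, reverse strand: ctgaatttactagtgtaaaATTAAAaaagt
SCAF4-201, the full-length form, chr21:31671033-31671062, reverse strand: gtttttAATAAActctattttcgtaacaaa
The hexamer starts 20, 25, 11 and 24 bases before the end. Searched on the transcript strand in the last 50 bases, either hexamer was present in 11.9% of 67650 early-ended transcripts of the annotation and in 51.7% of 83059 that reach the last exon. Such a match is a description of the annotated end, not a measured site. Neither hexamer was found at the ends of CDC73-206, CDC73-207, CDC73-209, SCAF8-205, SUPT5H-208 or ZC3H4-204. These early-ended forms also had a higher mean share of their gene under compound 2 than in DMSO.

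Where these 3 short forms leave the spliced transcript is shown by the exon edge they read through, with exon bases in lower case and intron bases in capitals.
PCF11-207, after exon 1 of 16, chr11:83157617-83157646, forward strand: gcccaaaccgccaagGTTTTTATACACCCC
SCAF4-204, after exon 19 of 20, chr21:31685034-31685063, reverse strand: ctgtttcacttcttgGTAAGTTATTTTTTT
SCAF4-206, after exon 7 of 20, chr21:31700980-31701009, reverse strand: actgcatttgacaagGTATATTTCTCTCAC
PCF11-207 keeps 1248 bases of the intron, SCAF4-204 keeps 1054 and SCAF4-206 keeps 236 before ending. The annotation gives none of the 3 a coding sequence. SCAF4-204 and SCAF4-206 are classed there as retained introns, and PCF11-207 as TEC, a class for models that await experimental evidence.

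**Figure D3:**
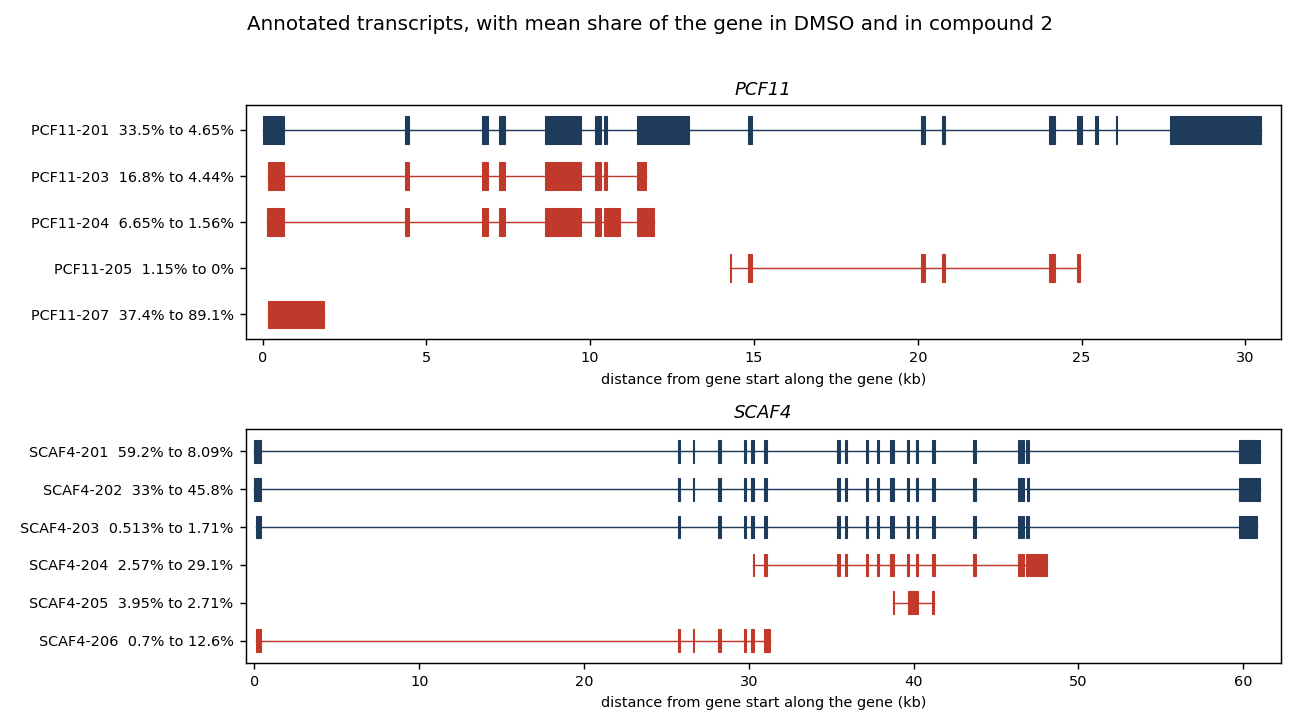
Annotated exons (boxes) of PCF11 and SCAF4 transcripts by distance from the gene start in kb, drawn to scale; blue transcripts reach the last exon and red ones end early. Labels give the mean share of the gene in DMSO and under compound 2, where PCF11-207 goes from 37.4% to 89.1% and SCAF4-201 from 59.2% to 8.09%.

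PCF11 became almost wholly early-ended under compound 2. The single-exon PCF11-207 (ENST00000624931, 1720 bases, ending 1.89 kb into the gene) held 39.6, 31.2 and 41.4% of PCF11 in DMSO and 93.1, 84.6 and 89.7% under compound 2. These shares did not overlap, and the log2 odds of PCF11-207 rose by 3.64 (limma adjusted p = 1.63e-06). PCF11-201 (ENST00000298281), the transcript with all 16 exons and the long coding sequence, fell from 33.5% ± 3.02 to 4.65% ± 2.00 of the gene (log2 odds -3.08, limma adjusted p = 3.14e-06). PCF11-203 and PCF11-204, which end 11.7 and 11.9 kb into this gene of 30.5 kb, fell as well, from 16.8% to 4.44% and from 6.65% to 1.56% (log2 odds -1.93 and -1.55, limma adjusted p = 0.00315 and 0.000198).

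The rise of the PCF11 gene sum therefore came with less of the full-length form. Transcripts that reach the last exon held 7.65, 7.98 and 7.84 TPM in DMSO and 1.10, 1.77 and 1.39 TPM under compound 2. Early-ended ones held 17.8, 14.5 and 14.6 TPM in DMSO and 38.8, 24.5 and 29.7 TPM under compound 2. The 2 classes moved apart in every batch, and the odds of an early end changed by 3.08 ± 0.23 (log2, limma adjusted p = 1.61e-07). Leaving out 1 library at a time gave 2.78 to 3.36.

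SCAF4 gained early-ended transcripts, while the sum of the forms that reach the last exon differed little. Early-ended forms made up 7.56, 6.95 and 7.13% of SCAF4 in DMSO and 40.9, 47.4 and 44.9% under compound 2, a change in log2 odds of 2.94 ± 0.21 (limma adjusted p = 1.46e-07). Forms that reach the last exon held 17.5, 16.6 and 15.3 TPM in DMSO and 20.0, 18.3 and 18.2 TPM under compound 2, which does not overlap but lies close. SCAF4-204 (ENST00000467731), which ends in the last intron, rose from 2.57% ± 0.509 to 29.1% ± 0.621 of the gene, and SCAF4-206 (ENST00000485790), which ends after exon 7, from 0.7% ± 0.625 to 12.6% ± 3.4. Their log2 odds changed by 2.98 and 2.18 (limma adjusted p = 5.44e-07 and 0.000146). With 0.1 TPM added in place of 0.5, the value of SCAF4-206 was 3.65 (limma adjusted p = 0.00138). The share of the short internal form SCAF4-205 fell from 3.95% to 2.71% (log2 odds -0.70, limma adjusted p = 0.011), while its level was 0.697 TPM in DMSO and 0.917 TPM under compound 2, and with 0.1 TPM added its odds did not pass (-0.61, limma adjusted p = 0.0803).

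Among the full-length forms of SCAF4, the major one changed. SCAF4-201 (ENST00000286835) held 59.1, 57.1 and 61.5% of the gene in DMSO and 8.96, 5.70 and 9.61% under compound 2, while SCAF4-202 (ENST00000399804) held 31.8, 35.9 and 31.4% and then 47.5, 46.6 and 43.4%. The order of the pair was reversed in every batch, with changes in log2 odds of -3.82 and 0.73 (limma adjusted p = 1.88e-07 and 0.00177). The pair differ in 66 bases at the start of exon 19 of 20, coding sequence that SCAF4-201 has and SCAF4-202 lacks (GRCh38 chr21:31685175-31685240, reverse strand). It is shown in capitals between 10 bases of exon 18 and 10 bases of exon 19, in lower case, because these bases separate the forms.
SCAF4-201 exon 19 stretch: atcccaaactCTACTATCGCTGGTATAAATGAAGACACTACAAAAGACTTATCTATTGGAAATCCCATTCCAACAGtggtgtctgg
SCAF4-204 also contains these bases, and how the quantification divided reads among the 3 forms was not tested.

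**Figure D4:**
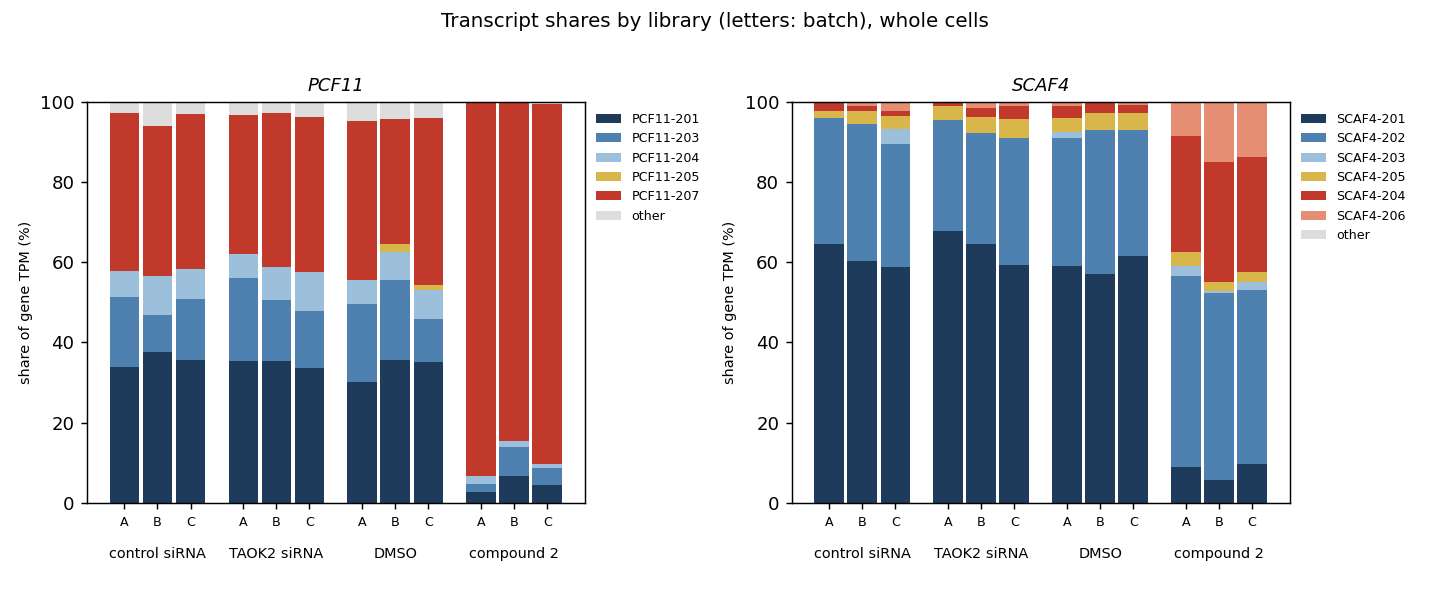
Share of gene TPM in percent (y axis, 0 to 100) held by each named transcript of PCF11 and SCAF4 in the 12 whole-cell libraries, 1 bar per library. Red and orange parts are the early-ended PCF11-207, SCAF4-204 and SCAF4-206, which are largest in all 3 compound 2 libraries; PCF11-203, PCF11-204, PCF11-205 and SCAF4-205 also end early.

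The gene level of CDC73 did not pass as changed under compound 2 as deposited, though it passed as higher when libraries were centred, and its transcripts were exchanged. Early-ended transcripts held 15.8, 15.1 and 25.2% of CDC73 in DMSO and 52.2, 48.6 and 46.0% under compound 2 (log2 odds 2.04 ± 0.30, limma adjusted p = 8.3e-05), with the DMSO library of batch C highest of its group. CDC73-214 (ENST00000650197), annotated as a target of nonsense-mediated decay that runs through the gene, fell from 45.4% ± 4.27 to 19.8% ± 2.89 (log2 odds -1.72, limma adjusted p = 2.75e-05), and the coding form CDC73-201 fell from 9.99% to 3.81% (-1.31, limma adjusted p = 0.00224). CDC73-209 (ENST00000649606), singled out after its values were seen, went from 0.24% ± 0.102 to 8.94% ± 0.641 (log2 odds 3.23, limma adjusted p = 1.48e-07). It ends 37.7 kb into a gene of 133 kb, and it was between 0.123% and 0.371% in every library of the other 3 groups.

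SUPT5H shifted less. Its main form SUPT5H-204 held 49.7, 51.6 and 57.8% in DMSO and 23.5, 33.3 and 34.1% under compound 2 (log2 odds -1.39, limma adjusted p = 0.000229). Early-ended SUPT5H transcripts went from 18.9% ± 3.76 to 31.2% ± 3.57 of the gene, and their odds changed by 0.96 ± 0.20 (limma adjusted p = 0.00133). Most of the gain in SUPT5H RNA lay in this class: transcripts reaching the last exon held 112 ± 4.82 TPM in DMSO and 124 ± 5.21 under compound 2, and early-ended ones 26.2 ± 5.83 and 56.6 ± 9.86 TPM. SUPT5H-208, which ends early, and the full-length SUPT5H-213 rose in share to 13.5% and 20.7%, but each lost its call without compound 2 of batch A or C, SUPT5H-208 also without DMSO of batch B or C and SUPT5H-213 without DMSO of batch A or C (limma adjusted p up to 0.153 and 0.0921). SUPT5H-208 also lost it with 0.1 TPM added (0.87, limma adjusted p = 0.05).

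In SCAF8 the early-ended sum was small. It held 0.0789, 0 and 0.567 TPM in DMSO and 1.72, 1.66 and 1.13 TPM under compound 2, and the odds changed by 1.43 ± 0.39 (limma adjusted p = 0.00777). With sums this near 0 the size depends on the added value, and with 0.1 TPM it was 2.66 ± 0.85 (limma adjusted p = 0.0232). Most of it was SCAF8-205, singled out after its values were seen and listed at 0 in all DMSO and control siRNA libraries and in 2 of 3 with TAOK2 siRNA, with 8.49, 4.92 and 6.48% of the gene under compound 2. In ZC3H4 the early-ended share was 22.4, 22.8 and 23.6% in DMSO and 24.4, 45.8 and 35.6% under compound 2 (log2 odds 1.16 ± 0.23, limma adjusted p = 0.000961). At 1.05 to 1.91 TPM of gene, the added 0.5 TPM weighs on that ZC3H4 value, and with 0.1 TPM it was 0.96 (limma adjusted p = 0.0189).

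Transcript use was also tested for each transcript alone. Of 44 transcripts of the 10 genes that could be tested, 28 changed their odds within the gene under compound 2, 16 up and 12 down, where 32.9% of all 55201 transcripts tested passed, 17.4% up and 15.5% down. They came from CDC73 (7 of 8 tested), SUPT5H (6 of 12), PCF11 (5 of 5), SCAF4 (5 of 5), ZC3H4 (3 of 3) and SUPT6H (2 of 5), with 0 of 3 each in WDR82 and PAF1. With 1 library left out, CDC73-207 kept its call in 1 of 6 fits and CDC73-208 in 3 of 6. CDC73-207 also lost its call with batch as a block (limma adjusted p = 0.0657) and with 0.1 TPM added (0.0558). One of the ZC3H4 calls, ZC3H4-202, goes against its own share: its odds passed as higher (1.36) while its share was 7.97% ± 2.62 in DMSO and 3.17% ± 2.88 under compound 2, at 1.70 and 0.0408 TPM. With 0.1 TPM added in place of 0.5, that value was 0.01 (limma adjusted p = 0.988). In SUPT6H the 2 long forms moved against each other, SUPT6H-201 from 48.0% to 42.3% and SUPT6H-202 from 45.0% to 51.7%. SUPT6H-201 lost its call when any of the 6 libraries was left out (limma adjusted p = 0.0585 to 0.113), and SUPT6H-202 in 4 of those 6 fits, those without compound 2 of batch B or C or DMSO of batch A or C (limma adjusted p up to 0.107).

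The TAOK2 siRNA comparison asked whether loss of the kinase RNA moves the same genes. Only SCAF8 fell, by a modest amount, and no gene among the 10 rose. With control siRNA SCAF8 stood at 19.1, 18.5 and 19.4 TPM, and after TAOK2 siRNA at 13.3, 13.0 and 13.1 TPM. Libraries within each group lay close together and the groups were well apart, 1.45-fold between means. The change was -0.50 ± 0.14 (limma adjusted p = 0.0228), so 1 of 10 passed where 22.2% of all genes did, 7.78% up and 14.4% down. In numbers these were 1020 up and 1885 down, or 1301 and 1385 with libraries centred on their median gene.

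The call on SCAF8 depended on the setting. It held with batch as a block (limma adjusted p = 0.0132), with libraries centred on their median gene (0.0119) and with only the 2 siRNA groups in the fit (0.000932). It was lost when any 1 of the 6 libraries was left out (limma adjusted p = 0.055 to 0.0711, with changes of -0.52 to -0.48) and with no filter on low genes (0.0599). In that fit of only the siRNA groups, PAF1 (-0.17, limma adjusted p = 0.0304) and PCF11 (0.17, 0.035) passed as well. In batches A, B and C, control libraries had 113, 107 and 111 TPM of PAF1 and knockdown libraries 94.5, 97.8 and 101 TPM. For PCF11 these were 23.1, 22.3 and 22.3 TPM and 25.4, 25.8 and 25.5 TPM. Neither pair overlapped, and neither gene passed in the fit over all 12 libraries (limma adjusted p = 0.157 and 0.321).

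Among the other genes, ZC3H4 stood at 28.6, 25.4 and 20.1 TPM in control libraries and at 28.2, 23.8 and 23.3 TPM in knockdown libraries, a change of 0.03 ± 0.15. The ZC3H4 groups overlapped fully. WDR82 (-0.06 ± 0.15), SCAF4 (-0.13 ± 0.08), XRN2 (-0.13 ± 0.08), SUPT5H (0.05 ± 0.07), SUPT6H (-0.13 ± 0.07) and CDC73 (-0.05 ± 0.07) did not pass either. Early ends passed in 0 of 9 genes (0 with an unadjusted p under 0.05, against 0.16% of all genes after adjustment, 0.0984% towards early ends and 0.0615% away). Transcript use passed in 0 of 44 transcripts (3 with an unadjusted p under 0.05, against 0.0362% of all transcripts after adjustment, 0.0199% up and 0.0163% down). PCF11-207, the early form of PCF11, held 38.4% ± 0.956 of the gene with control siRNA and 37.2% ± 2.13 with TAOK2 siRNA.

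The difference between both effects, knockdown minus control siRNA less compound 2 minus DMSO, was tested directly. It passed for 7 of 10 genes, with ZC3H4 (3.16 ± 0.21, limma adjusted p = 3.67e-07), WDR82 (1.14 ± 0.21, 0.000563), SUPT6H (0.74 ± 0.10, 5.85e-05) and PAF1 (0.67 ± 0.12, 0.000419) higher under knockdown relative to compound 2. SCAF4 (-1.03 ± 0.11, limma adjusted p = 7.31e-06), SCAF8 (-0.70 ± 0.20, 0.00895) and SUPT5H (-0.33 ± 0.10, 0.0132) were lower. The difference passed for 54.7% of all genes, 42.4% higher and 12.3% lower. Among the fits with 1 library left out, PCF11 passed only without the compound 2 library of batch B (-0.40, limma adjusted p = 0.0204). Each against its own control, ZC3H4 changed by 0.03 under knockdown and by -3.13 under compound 2. The dose and time of compound 2 are not known here, so these sizes are not matched for strength of treatment. With libraries centred on their median gene, values moved by -0.46, PAF1 no longer passed (0.20, limma adjusted p = 0.0682) and XRN2, CDC73 and PCF11 passed as lower. Over all genes, 5560 were higher and 1614 lower as deposited and 2766 and 4674 when centred.

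The fractions of control cells were compared to see where these RNAs lie. PCF11, SUPT6H, SUPT5H, SCAF4 and SCAF8 were higher in nuclear than in cytoplasmic RNA, and the other 5 genes did not pass. In limma 5 of 10 passed, all towards the nucleus, where 48.7% of 13751 genes passed 29.8% towards the nucleus and 18.9% towards the cytoplasm. With batch as a block all 10 passed: XRN2 (0.70, limma adjusted p = 0.00395), ZC3H4 (0.75, 0.0404) and PAF1 (0.36, 0.0329) as nuclear, and WDR82 (-0.43, 0.0179) and CDC73 (-0.54, 0.0306) as cytoplasmic. The share of all genes that passed with the block is not given here, so 48.7% is no background for that count. A TPM level is a share of its own library, so these values compare shares of each fraction and not amounts per cell.

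PCF11 held 69.0 and 87.7 TPM in the control nuclear libraries of batches 1 and 2 and 11.6 and 18.4 TPM in the cytoplasmic ones. It was the gene with the widest gap of the 10 in fold, 5.23 between means, and it changed by 2.33 ± 0.40 (limma adjusted p = 0.00161). SUPT6H held 91.7 and 95.8 TPM in nuclear and 19.7 and 21.4 in cytoplasmic RNA (2.14 ± 0.20, limma adjusted p = 7.29e-05). SUPT5H held 163 and 119 TPM and 32.7 and 29.9 TPM (2.12 ± 0.31, limma adjusted p = 0.000744).

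SCAF4 held 16.2 and 15.9 TPM in nuclear and 5.37 and 4.68 TPM in cytoplasmic RNA, again without overlap (1.50 ± 0.17, limma adjusted p = 0.000157). SCAF8 held 21.4 and 22.3 and then 10.3 and 12.2 TPM (0.90 ± 0.21, limma adjusted p = 0.00746), and it lost its call without the cytoplasmic library of batch 1 (limma adjusted p = 0.0547). WDR82 and CDC73 went the other way in level, at 31.2 and 28.2 TPM and 17.6 and 22.2 TPM in nuclear RNA against 43.7 and 37.4 TPM and 24.4 and 35.0 TPM in cytoplasmic RNA.

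Which genes count as nuclear depends on the scale. Mitochondrial mRNA made up 42.5% and 37.9% of control nuclear TPM and 13.9% and 10.8% of cytoplasmic TPM, and TPM sums to a fixed total. In control total RNA it made up 6.63% and 4.34%, below both fractions. The purity of the fractions was not tested, which limits reading these values as location. With mitochondrial genes left out and the rest rescaled, an alternative added after the data were seen, 8 of 10 genes passed as nuclear and WDR82 (0.10) and CDC73 (-0.02) did not pass. The median of all genes was then 0.74, with 6919 genes higher in the nucleus and 1378 lower, against a median of 0.21 and 4101 and 2598 as deposited. With libraries centred on their median gene, SCAF8 (0.51, limma adjusted p = 0.0632) no longer passed, WDR82 (-0.82, 0.00356) and CDC73 (-0.93, 0.0315) passed as cytoplasmic, and 2779 genes were higher and 4095 lower. PCF11, SUPT6H, SUPT5H and SCAF4 passed as nuclear under each of these scalings.

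**Figure D5:**
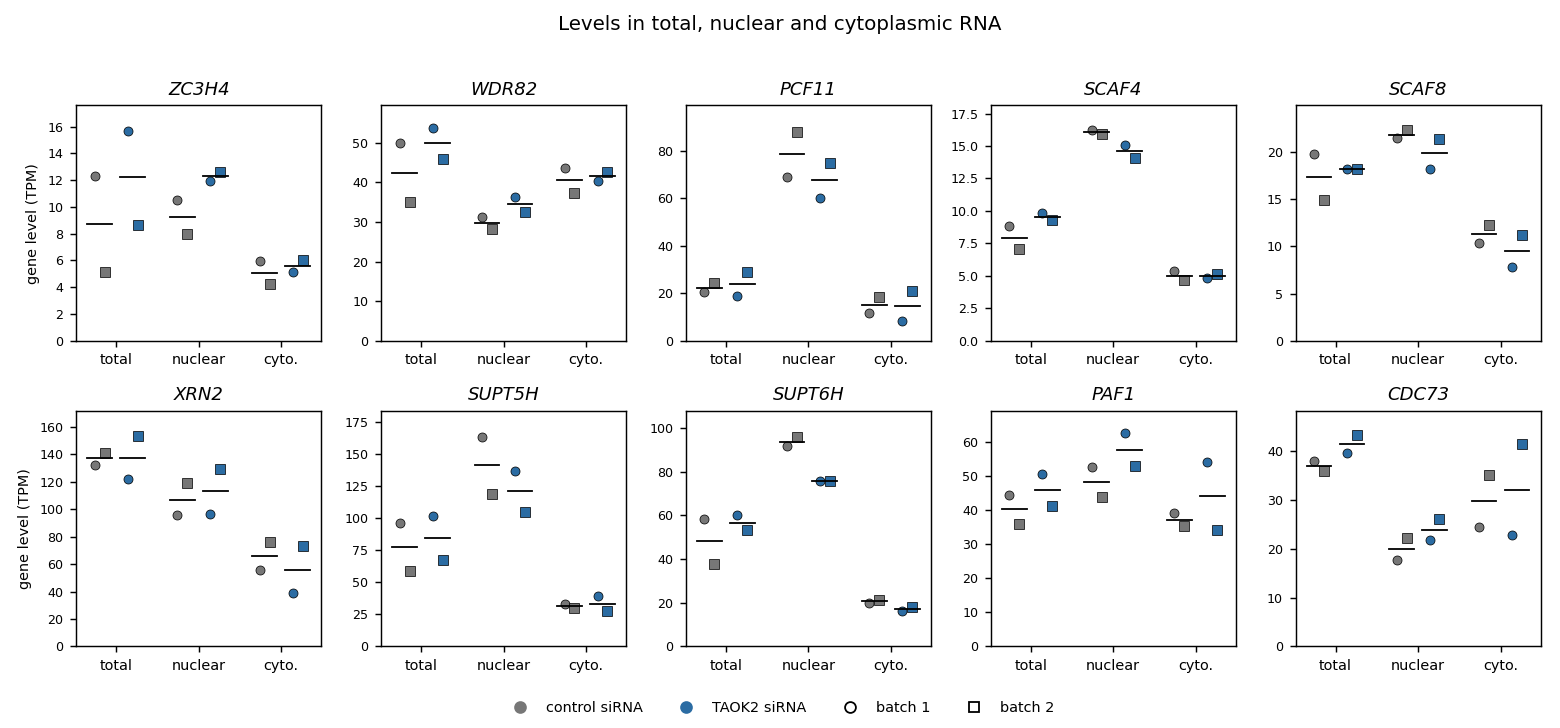
Gene level in TPM (y axis, linear from 0) of the 10 genes in total, nuclear and cytoplasmic RNA with control siRNA (grey) or TAOK2 siRNA (blue); symbols mark batches and lines the mean of 2 libraries. PCF11, SUPT5H, SUPT6H and SCAF4 are highest in nuclear RNA, where PCF11 reaches 87.7 TPM.

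Early-ended transcripts lay towards the nucleus in most of these genes, as they did over all genes tested, where the median change in log2 odds was 1.14. The values of PCF11 and ZC3H4 were below that median. Of 8 genes tested, 6 had higher odds of an early end in nuclear than in cytoplasmic RNA, where 42% of 8043 genes passed, 39.5% in that direction and 2.51% in the other. In SCAF4, early-ended forms held 5.83 and 8.10 TPM in nuclear and 0.280 and 0.169 TPM in cytoplasmic RNA, which is 36.0 and 50.8% against 5.22 and 3.62% of the gene (log2 odds 2.50 ± 0.55, limma adjusted p = 0.00587). In SUPT6H the early-ended share was 34.4 and 44.6% against 9.62 and 14.6% (2.04 ± 0.46, limma adjusted p = 0.00649). These 2 calls were lost without the nuclear library of batch 2 (limma adjusted p = 0.0552 and 0.0589). Of the mean 37.1 TPM of early-ended SUPT6H in control nuclear RNA, 23.2 TPM was SUPT6H-203, a partial model of 505 bases inside the gene. How much of such signal came from unspliced RNA was not tested.

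WDR82 (log2 odds 2.55 ± 0.44, limma adjusted p = 0.00163) and CDC73 (2.15 ± 0.45, 0.00456) passed and kept their calls when any library was left out; with 0.1 TPM added the value of WDR82 was 3.83 (limma adjusted p = 0.00607). SUPT5H (2.17 ± 0.62, limma adjusted p = 0.0194) lost its call without any 1 of the 4 control libraries (0.0581 to 0.0935). PAF1 (1.89 ± 0.64, limma adjusted p = 0.04) lost it without the cytoplasmic library of batch 1 or either nuclear library (0.111 to 0.263), and with 0.1 TPM added (2.52 ± 1.15, 0.112). PCF11, early-ended at 74.3 and 76.4% in nuclear and 63.1 and 65.4% in cytoplasmic RNA, passed only with batch as a block (0.80, limma adjusted p = 0.111 without and 0.0377 with it), and ZC3H4 did not pass (0.24 ± 0.92). Transcripts annotated as retained introns made up 8.86% and 9.75% of control nuclear TPM and 3.59% and 3.92% of cytoplasmic TPM, and their part in these values was not tested.

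At the level of single transcripts, 14 of 53 changed their odds between nucleus and cytoplasm, 9 up and 5 down. In the same fit 34.3% of all transcripts passed, 21.5% up and 12.7% down. With batch as a block 22 of the 53 passed, a count for which no share of all transcripts is given here. The clearest was in WDR82. The spliced coding form WDR82-201 held 98.6 and 99.9% of the gene in cytoplasmic and 82.1 and 79.0% in nuclear RNA (log2 odds -3.73, limma adjusted p = 0.000413), and the retained-intron form WDR82-204 held 0.0661 and 0.133% and then 10.7 and 11.5% (3.42, limma adjusted p = 0.00077). Both kept their calls when any library was left out, and WDR82-204 was at 5.22 with 0.1 TPM added. SUPT5H-204 fell from 79.7% ± 2.04 in the cytoplasm to 36.2% ± 3.94 in the nucleus (log2 odds -2.71, limma adjusted p = 0.00143). The internal retained-intron form SCAF4-205 rose from 0.654% to 22.2% (1.67, limma adjusted p = 0.0204, or 3.49 and 0.00232 with 0.1 TPM added), but lost its call without either cytoplasmic library or the nuclear library of batch 2 (0.0787 to 0.12).

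For TAOK2 siRNA no change of the 10 genes passed in the fractionation experiment. In limma 0 of 10 passed in total, nuclear or cytoplasmic RNA, and 0 of 10 for the effect of knockdown on the nuclear to cytoplasmic ratio, with 0 of 10 at an unadjusted p under 0.05 in each. Over all genes 0%, 0.0145%, 0% and 0% passed, and 917, 1328, 933 and 184 had an unadjusted p under 0.05, so the fit over 2 libraries per group called almost nothing. The largest changes of the 10 genes were 0.49 ± 0.39 in total and 0.38 ± 0.39 in nuclear RNA, both in ZC3H4, and -0.29 ± 0.30 in cytoplasmic RNA, in XRN2. Total RNA of control cells had 12.3 and 5.13 TPM of ZC3H4 and that of knockdown cells 15.7 and 8.65 TPM, so batches differed more than treatments. SCAF8 held 19.7 and 14.9 TPM and then 18.2 and 18.2 TPM, which overlapped. Transcript use also passed in 0 of 53 transcripts in nuclear and in cytoplasmic RNA (3 and 2 with an unadjusted p under 0.05, and 0% of all transcripts in both).

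Isoform shares differed between the experiments and are given only within each. SCAF8-201 held 88.6% to 98.4% of SCAF8 in whole cells and 0% to 14.4% in the fractionation libraries, where SCAF8-202 and SCAF8-203, which have longer coding sequences, took most of the rest. Within that experiment SCAF8-203 held 75.8% and 18.0% in the control cytoplasmic libraries of batches 1 and 2, and SCAF4-203 held 26.2% and 0% in the nuclear ones. PCF11-203 was listed at 0 in all nuclear and cytoplasmic libraries, and PCF11-205 held 14.6% to 59.5% there against at most 2.11% in whole cells. The cause of these differences was not tested.

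Other genes of the pathway were counted from 9 lists with 98 genes, all measured in both experiments. Under compound 2 their counts are to be read against 12% of all genes that passed up and 51.8% down. The Integrator complex, which cuts short RNAs near the start of genes, had 13 of 15 members down and 0 up (median -1.11, against -0.31 over all genes), with INTS2 (-1.69), INTS6 (-2.16) and INTS14 (-1.32) at the smallest adjusted p. Of 9 members of the SETD1 complexes that share WDR82, 8 fell and 1 rose (median -0.78), with SETD1B (-2.13) and SETD1A (-1.78), the methyltransferases, and ASH2L (-1.02) leading. Of 8 partners of the restrictor, 4 fell and 2 rose (median -0.18), among them ZC3H18 (-2.25) and TOX4 (-1.37) down and SRRT (1.20) up. Those 3 bind the RNA cap complex or the phosphatase PP1 scaffold.

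The same shares of all genes, 51.8% down and 12% up, stand beside the remaining lists. Partners of DSIF and NELF had 3 of 5 down and 0 up (median -0.26; NELFA -0.84), and of 4 other PAF subunits only RTF1 changed, down by -0.80. Of 13 elongation kinases and their partners, 7 fell and 4 rose (median -0.30, against -0.31 over all genes), with the kinases CDK12 (-2.07) and CDK9 (-1.23) and the inhibitor subunit MEPCE (-1.84) down. SPT6 partners and elongation factors had 5 of 17 down and 5 up (median -0.04; MLLT1 -1.19, EAF1 0.71, IWS1 -1.10). XRN2 partners and readers of the polymerase tail had 4 of 15 down and 3 up (median -0.08), with SCAF1 (-1.47) and the termination factor TTF2 (-1.19) among those down. Subunits of the polymerase itself had 4 of 12 up and 4 down (median 0.11), and the large subunit POLR2A rose by 0.75.

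With TAOK2 siRNA the lists are to be read against 7.78% of all genes that passed up and 14.4% down. Integrator had 2 of 15 down (INTS14 -0.45, INTS9 -0.29), the SETD1 complexes 1 of 9 (RBBP5 -0.33), the partners of the restrictor 1 of 8 (NCBP1 -0.26), and DSIF and NELF, PAF and kinase lists 0 of 5, 0 of 4 and 0 of 13. SPT6 partners and elongation factors had 6 of 17 down and 1 up, with the histone chaperone SSRP1 (-0.46), EAF1 (-0.68) and AFF4 (-0.63) down. XRN2 partners and tail readers had 4 of 15 down and 1 up (CDKN2AIPNL -0.32, TTF2 -0.37, RPRD1B -0.32), and polymerase subunits 5 of 12 down and 1 up, POLR2A (0.54). With compound 2, EAF1 and SSRP1 (0.21) passed as higher instead, while AFF4 (-0.43) was again lower. Other genes of that list are not compared in this way here.

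Between nucleus and cytoplasm of control cells, 29.8% of all genes passed as higher in the nucleus and 18.9% as lower. Integrator had 7 of 15 members higher in the nucleus and 0 lower (median 0.72, against 0.21 over all genes; INTS3 1.72, INTS4 1.65, INTS2 1.51). XRN2 partners and tail readers had 9 of 15 higher and 2 lower (SPOCD1 2.01, TTF2 1.49, RTRAF -1.49). Polymerase subunits had 3 of 12 higher and 7 lower (median -1.25), with the large subunit POLR2A at 2.79 and the small subunits POLR2K at -2.02 and POLR2D at -1.23. SETD1 complexes had 2 of 9 higher and 1 lower, kinases 4 of 13 and 1, PAF subunits 2 of 4 and 0, partners of the restrictor 1 of 8 and 2, DSIF and NELF 1 of 5 and 2, and SPT6 partners and elongation factors 2 of 17 and 6.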

How the data were processed

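Polyadenylated RNA of A549 cells was sequenced as 150 bp paired reads from RNA with an integrity number above 6, per the labels' protocols. The authors deposited transcript TPM, made with kallisto (version not given in the sources used here) and with the build GRCh38.p14, per the submitters' processing notes. TPM keeps no read totals, so no counting interval can be given. Of 188753 transcripts, 169797 matched GENCODE 29 and were summed to genes; the others were not used here. Libraries and batches were grouped by their labels.

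Genes whose mean reached 1 TPM were tested on log2(TPM + 1) with limma 3.58.1 (trend and robust; statmod 1.5.0, R 4.3.3), all 12 libraries of an experiment in 1 fit, Benjamini-Hochberg at 0.05. Log2 odds of transcripts (mean of at least 0.5 TPM) and of early-ended transcripts had 0.5 TPM added. Errors are moderated SE for changes and SD for levels. The fits were tested on simulated data. Tables and figures used Python 3.11.15, pandas 2.3.3, numpy 2.4.6 and matplotlib 3.10.9.

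The 10 genes were named in every comparison, transcripts where they held 10% of their gene in any group, and from each list up to 3 genes among those of smallest adjusted p, 1 of which is not reported here; members and lists were chosen with earlier results of these data known. Batch labels pair libraries: after removing group means, those of one batch had correlations of 0.531 to 0.837 in the fractionation (30 of 30 pairs over 0.1) and of -0.302 to 0.639 in whole cells (12 of 18). Alternatives were another pseudocount or offset, filter, scaling or set of libraries, a batch block, and leaving out each library.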

Additional observations from a re-analysis of the deposited data

Results flagged for a closer look

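In the fractionation experiment some effects of TAOK2 siRNA on these genes had opposite signs in 2 kinds of RNA, in both batches of each. None of the single effects passed in limma. The log2 difference of SUPT6H was 0.26 in total RNA, -0.30 in nuclear and -0.25 in cytoplasmic RNA. That of SCAF4 was 0.25 in total and -0.13 in nuclear RNA, and that of SUPT5H 0.14 and -0.22. The difference between total RNA and a fraction was not tested. That of XRN2 was 0.06 in nuclear and -0.29 in cytoplasmic RNA, and the test of that difference did not pass (0.35, limma adjusted p = 1).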

How the results depend on the processing

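The 7 calls under compound 2 among the 10 genes kept direction and call under each alternative run, and leaving out 1 library gave 7 to 8 calls, 6 to 7 for early ends and 23 to 26 for transcript use. The difference between knockdown and compound 2 gave 7 to 8. The single call under knockdown became 0 with no filter, 3 with only the siRNA groups in the fit, and 0 to 0 without any 1 library. For nuclear against cytoplasmic RNA, the 5 calls became 10 with batch as a block, 8 with mitochondrial genes left out, and 4 to 5 without 1 library. The 14 calls of transcript use became 22 with the block and 9 among transcripts of at least 1 TPM, and ranged from 4 to 10 without 1 library, with 4 and 5 left without the cytoplasmic or nuclear library of batch 2. The 6 calls of early ends ranged from 2 to 5, with 2 left without the nuclear library of batch 2. The cause of these moves was not tested, apart from fewer transcripts or libraries entering some fits. The block changed no other count by over 1.5 times. Shares of all genes or transcripts that passed with the block are not given here. Signs turned in 3 values, none of them passing there: WDR82-204 use under compound 2 with an offset of 0.1 TPM (-0.23), PAF1 between nucleus and cytoplasm when centred (-0.022), and WDR82 there with mitochondrial genes left out (0.10). The call of ZC3H4-202 use under compound 2 (1.36) went to 0.01 with that offset. Of 1578 alternative values of results called under no setting, 181 changed sign.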
